A study of Mus musculus with 4 samples.

Results

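The genes described here are 33 members of the p53 and DNA damage response, in leukemia stem cells with and without Hif1a. They comprise 23 targets of the transcription factor p53 and 10 checkpoint and repair genes. They were chosen by name from a fixed list, each gene was represented by the probe set with the highest mean among those annotated to that symbol alone, and all 33 were measured, of 19938 genes in all. Expression was read from total RNA on 4 Affymetrix whole-transcript arrays as RMA values, a background-corrected and normalised log2 intensity. There were 2 arrays of Hif1a-/- cells and 2 of WT cells.

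Both groups came from a bone marrow transplantation model of chronic myeloid leukemia. Donors of strain C57BL/6 (B6), 8 weeks old per the labels, were Hif1a-/- or WT and were treated with 5-fluorouracil. Their marrow received a retrovirus carrying green fluorescent protein and BCR-ABL, the kinase fusion that causes this leukemia, and was given to B6 recipients. Fluorescent cells without lineage markers and with c-Kit and Sca-1 were sorted from recipient marrow 14 days later. BCR-ABL, 5-fluorouracil and transplantation were thus common to all 4 samples, and no untransformed or untreated cells were set beside them. The labels name biological replicates without saying that they were separate animals, so every p-value here reflects sample-to-sample spread alone, which may be technical. They give neither the deleted exons of Hif1a nor how the deletion was made.

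As background, p53 is held low by Mdm2 and Mdm4 in unstressed cells and is stabilised when the kinases Atm and Atr signal DNA breaks or stalled replication through Chek2 and Chek1. It then induces genes that arrest the cycle, repair DNA or start cell death, and it also induces Mdm2, which closes a feedback loop. In blood stem cells this response limits expansion after damage, and much of p53's activity is set on the protein and not on its transcript. Transcripts of its targets are therefore a common readout of the pathway.

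To set the 2 classes of member side by side, promoters are shown for 4 members whose windows hold a p53 or an E2F motif, 2 of them p53 targets and 2 of them checkpoint or repair genes. RefSeq promoter windows of build GRCm38.p6 run from 250 bases before to 50 after an annotated start site. They were on hand for 25 of the 33 members (17 p53 targets and 8 checkpoint and repair genes). A start site can lie inside the gene's annotated span, as it does for the Brca2 and Chek2 windows shown. The p53 half-site consensus and the E2F motif TTTNNCGC were searched on both strands, and capitals mark the matches. In Mdm2 (chr10:117710709-117711008, minus strand) the half-site comes first and the E2F motif after it, without overlap, and in Gadd45a (chr6:67037358-67037657, minus strand) the capitals are a half-site. In Brca2 (chr5:150522371-150522670, plus strand) and Chek2 (chr5:110839733-110840032, plus strand) all capitals are E2F motifs.
Mdm2: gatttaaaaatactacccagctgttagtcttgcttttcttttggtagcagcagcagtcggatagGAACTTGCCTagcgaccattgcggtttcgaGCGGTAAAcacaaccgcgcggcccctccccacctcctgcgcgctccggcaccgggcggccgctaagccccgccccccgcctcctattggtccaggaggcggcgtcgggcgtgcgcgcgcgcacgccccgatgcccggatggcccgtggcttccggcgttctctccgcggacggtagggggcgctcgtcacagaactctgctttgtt
Gadd45a: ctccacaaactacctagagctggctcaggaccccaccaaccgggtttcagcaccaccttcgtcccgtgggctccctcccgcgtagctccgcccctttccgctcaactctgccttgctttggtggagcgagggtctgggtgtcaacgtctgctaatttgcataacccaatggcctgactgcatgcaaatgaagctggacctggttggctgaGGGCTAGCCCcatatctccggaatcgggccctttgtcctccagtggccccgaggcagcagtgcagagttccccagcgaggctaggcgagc
Brca2: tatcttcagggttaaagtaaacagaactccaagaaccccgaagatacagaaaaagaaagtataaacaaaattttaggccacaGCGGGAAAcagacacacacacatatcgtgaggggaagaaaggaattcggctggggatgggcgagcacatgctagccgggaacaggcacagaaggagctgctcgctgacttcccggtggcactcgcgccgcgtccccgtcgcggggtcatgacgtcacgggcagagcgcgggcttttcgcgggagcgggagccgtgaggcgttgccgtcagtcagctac
Chek2: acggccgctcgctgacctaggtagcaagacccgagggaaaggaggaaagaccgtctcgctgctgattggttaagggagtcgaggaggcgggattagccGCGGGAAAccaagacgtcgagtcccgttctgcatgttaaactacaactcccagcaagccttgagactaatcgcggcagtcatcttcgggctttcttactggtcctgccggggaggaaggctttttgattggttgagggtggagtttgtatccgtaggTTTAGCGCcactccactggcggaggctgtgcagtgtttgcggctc

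A half-site stood in 8 of 21 windows of p53 targets, from the 7 genes Mdm2, Ccng1, Gadd45a, Sesn1, Aen, Ei24 and Polk, and in 0 of 8 windows of checkpoint and repair genes. Of all 32851 windows of the table, 8.36% held one. The E2F motif stood in 2 of 21 windows of p53 targets (Mdm2 and Fas) and in 2 of 8 of checkpoint and repair genes (Brca2 and Chek2), against 5.17% of all windows. Both windows of Aen overlap and share 1 half-site. The half-site windows of Sesn1 and Polk stand at start sites inside the gene, while the windows at their outermost start held no half-site. A match describes these letters and no more, and the windows leave out most intron sequence and distant elements.

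The design poses a single comparison, Hif1a-/- against WT leukemia stem cells. Hif1a itself read 11.25 and 11.39 on the Hif1a-/- arrays, against 11.34 and 11.50 on the WT arrays, a difference of -0.09 with a 95% interval from -0.42 to 0.23. Since the deleted exons are not given, a probe set reading the whole transcript may still give signal after the deletion, and the value tests the genotype labels only weakly. The array medians lay between 8.53 and 8.57. The table holds no detection calls, so no marker can be called absent. Kit, the receptor used in the sort, read 10.95 and 10.61 in Hif1a-/- cells, against 10.32 and 11.07 in WT cells, and the Sca-1 gene Ly6a was not analysed here. Ly6g, a granulocyte marker that the lineage gate should remove, read 11.74 and 11.64 in Hif1a-/- cells, against 13.10 and 10.64 in WT cells. The WT arrays thus stood on either side of the Hif1a-/- arrays for both genes. The WT arrays correlated less with each other (Pearson r = 0.981 across genes) than the Hif1a-/- arrays did (0.995). They also correlated less with each other than with either Hif1a-/- array (0.988 to 0.993).

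No difference between genotypes passed the test among the p53 targets or the checkpoint and repair genes. By limma with Benjamini-Hochberg adjustment over all genes, 0 of the 33 members passed an adjusted p of 0.05, where 0% of all genes passed. At an unadjusted limma p under 0.05 there were again 0 of 33 members, against 1.68% of all genes, of which 0.978% were lower and 0.697% higher in Hif1a-/- cells. The smallest unadjusted p among the members was 0.0823, for Perp, and the adjusted p was 0.999 for every member. The 95% limma interval of each of the 33 members, not adjusted for their number, lay within a 2-fold difference in either direction, and that of 19 members lay within 1.5-fold. Half-widths ran from 0.29 to 0.77 on the log2 scale, with a median of 0.45. Leaving out WT replicate 2 changed the count to 9 members called, 4 lower and 5 higher in Hif1a-/- cells, where 7.23% of all genes (1442 of 19938) were called. This is a fit in which a single WT array is assumed to vary like the Hif1a-/- pair. The 4 lower were Perp (-0.69), Btg2 (-0.63), Trp53inp1 (-0.62) and Plk2 (-0.49), and the 5 higher were Atr (0.60), Brca2 (0.54), Parp1 (0.53), Zmat3 (0.52) and Atm (0.48). Without WT replicate 1, without Hif1a-/- replicate 1 or without Hif1a-/- replicate 2, 0 members were called.

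**Figure D1:**
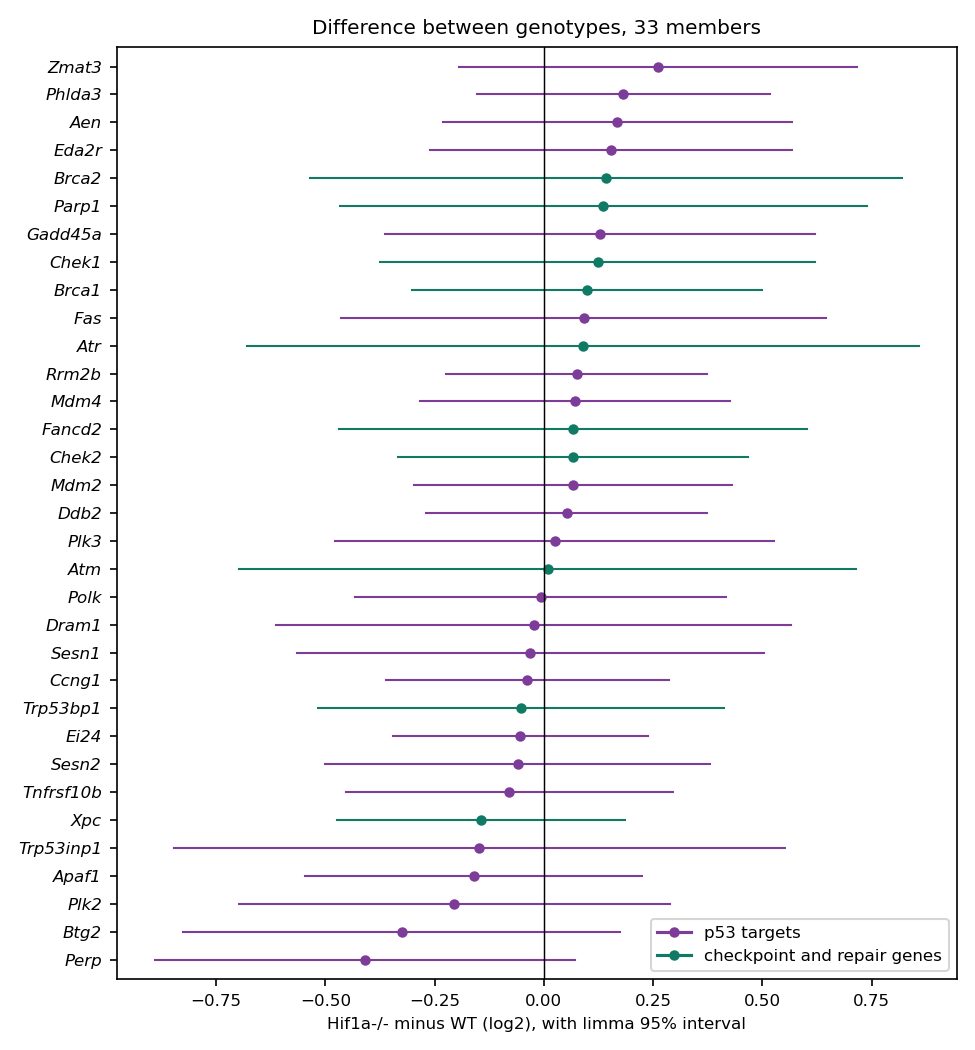
Difference in log2 expression, Hif1a-/- minus WT, for each of the 33 members (points) with its 95% limma interval (lines), ordered by size; p53 targets are purple and checkpoint and repair genes green. Every interval includes 0, and the differences run from -0.41 (Perp) to 0.26 (Zmat3).

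By direction of the means, the p53 targets were split evenly and the checkpoint and repair genes less so. Among 23 p53 targets the Hif1a-/- mean was the higher one in 11 and the lower one in 12, with a median difference of -0.0069. Among 10 checkpoint and repair genes it was higher in 8 and lower in 2, with a median of 0.078. Over all genes, the Hif1a-/- mean was higher in 61.4% and lower in 38.6%, and the median difference was 0.034. The checkpoint and repair median was -0.26 without WT replicate 1, -0.073 without Hif1a-/- replicate 1, 0.17 without Hif1a-/- replicate 2 and 0.37 without WT replicate 2, so its sign turned with the array left out.

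In 5 of the 33 members the Hif1a-/- and WT arrays did not overlap, and in 24.8% of all genes. Perp, a membrane protein of p53-dependent apoptosis and of desmosomes, read 10.60 and 10.75 in Hif1a-/- cells, against 11.36 and 10.81 in WT cells. WT replicate 1 stood apart and WT replicate 2 lay just above the Hif1a-/- arrays. The difference was -0.41 ± 0.20 (SE, n = 2 each) with a 95% interval from -0.89 to 0.070, and -0.13 without WT replicate 1.

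The other 4 members without overlap, given in full after their values were seen, differed less. Xpc, which recognises lesions for nucleotide excision repair, read 9.11 and 9.08 in Hif1a-/- cells, against 9.12 and 9.36 in WT cells, a difference of -0.14. Ei24, an endoplasmic reticulum protein linked to autophagy, read 10.75 and 10.74 in Hif1a-/- cells, against 10.76 and 10.84 in WT cells, a difference of -0.055. In both genes the gap between the groups was far narrower than the distance between the WT arrays. Phlda3, an inhibitor of the kinase Akt, read 9.14 and 9.39 in Hif1a-/- cells, against 9.05 and 9.12 in WT cells, a difference of 0.18. Rrm2b, the p53-induced subunit of ribonucleotide reductase, read 8.57 and 8.56 in Hif1a-/- cells, against 8.43 and 8.55 in WT cells, a difference of 0.075. Here too the gap between the groups was narrow. It was far narrower than the distance between the Hif1a-/- arrays for Phlda3 and between the WT arrays for Rrm2b. The 3 members lower and 2 higher without overlap compare with 9.05% and 15.7% of all genes.

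Among the feedback genes of p53, Mdm2 and Mdm4 had nearly the same pattern over the arrays. Mdm2, the ubiquitin ligase that marks p53 for degradation, read 9.73 and 9.76 in Hif1a-/- cells, against 9.51 and 9.85 in WT cells. Mdm4, a relative of Mdm2 that binds and inhibits p53, read 10.23 and 10.28 in Hif1a-/- cells, against 10.03 and 10.34 in WT cells. In both, the Hif1a-/- arrays lay within 0.05 of each other and between the WT arrays, which were 0.33 and 0.31 apart. The genotype differences were 0.066 for Mdm2 (95% interval -0.30 to 0.43) and 0.071 for Mdm4 (-0.28 to 0.43). Ccng1, which encodes cyclin G1, differed by -0.038, and by 0.074 without Hif1a-/- replicate 1.

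The genes of growth arrest and stress response went both ways. Trp53inp1, a stress-induced nuclear protein that promotes p53 activity, read 10.01 and 10.03 in Hif1a-/- cells, against 10.64 and 9.69 in WT cells. The Hif1a-/- arrays nearly coincided, while the WT arrays lay 0.95 apart around them, and the genotype difference was -0.15 ± 0.29 (limma SE). Btg2, an antiproliferative factor that promotes mRNA decay, read 9.17 and 9.08 in Hif1a-/- cells, against 9.76 and 9.15 in WT cells, a difference of -0.33. Zmat3, an RNA-binding zinc finger protein, read 8.66 and 8.64 in Hif1a-/- cells, against 8.12 and 8.65 in WT cells, a difference of 0.26. In Btg2 and Zmat3 WT replicate 2 lay with or next to the Hif1a-/- arrays and WT replicate 1 stood apart. Without WT replicate 1 these differences were -0.023 for Btg2 and -0.0029 for Zmat3.

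Among paralogs of this class, Sesn1 and Sesn2 went opposite ways between the WT arrays, while Plk2 and Plk3 went the same way. Sesn1 and Sesn2 encode sestrins, which restrain the growth kinase complex mTORC1 under stress. Sesn1 read 9.85 and 9.57 in Hif1a-/- cells, against 9.43 and 10.05 in WT cells. Sesn2 read 10.03 and 9.80 in Hif1a-/- cells, against 10.20 and 9.75 in WT cells. WT replicate 2 was thus the high array for Sesn1 and the low one for Sesn2, and the Hif1a-/- arrays lay between the WT arrays for both, with genotype differences of -0.031 and -0.060. The polo-like kinases Plk2 and Plk3 were both lower on WT replicate 2, with differences of -0.57 and -0.62 from WT replicate 1 and genotype differences of -0.20 for Plk2 and 0.024 for Plk3. Plk3 differed by -0.0017 with array medians centred. Gadd45a, a stress sensor of growth arrest, differed by 0.13, with 9.85 and 9.33 in Hif1a-/- cells, against 9.61 and 9.31 in WT cells, so that replicate 1 was the higher array of both genotypes.

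**Figure D2:**
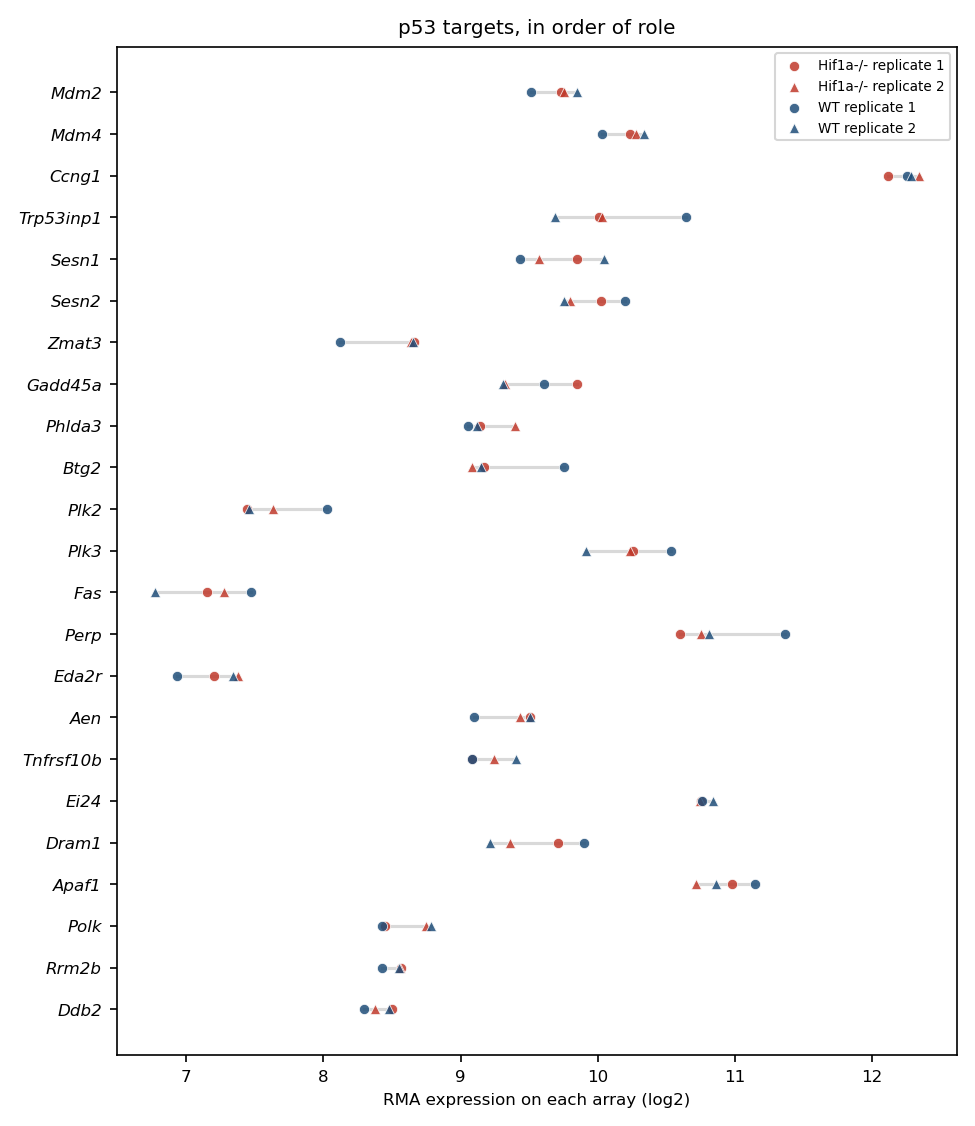
RMA expression (log2) of the 23 p53 targets on each array, ordered by role from feedback (Mdm2) through growth arrest and death to repair (Ddb2); red marks are Hif1a-/-, blue marks WT, circles replicate 1 and triangles replicate 2. The red marks lie between the blue ones for 11 of the 23 genes, as for Trp53inp1 at 10.01 and 10.03 against 10.64 and 9.69 in WT.

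Besides Perp and Ei24, the genes of cell death and autophagy had differences between -0.16 and 0.17. The death receptor Fas read 7.15 and 7.27 in Hif1a-/- cells, against 7.47 and 6.77 in WT cells, a difference of 0.091. Dram1, a lysosomal protein of p53-induced autophagy, read 9.71 and 9.36 in Hif1a-/- cells, against 9.90 and 9.21 in WT cells, a difference of -0.023. For both genes WT replicate 1 was the highest array and WT replicate 2 the lowest. Apaf1, the scaffold of the apoptosome, differed by -0.16, and the mouse TRAIL receptor gene Tnfrsf10b by -0.079. Aen, an apoptosis-enhancing nuclease, differed by 0.17 and Eda2r, a receptor of the TNF receptor family, by 0.15. Of the p53-induced repair genes, Ddb2, which recognises ultraviolet lesions, differed by 0.052, and Polk, a polymerase that copies past lesions, by -0.0069.

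All 4 checkpoint kinases had their Hif1a-/- arrays between the WT arrays. Atr, the kinase of stalled replication forks, read 9.49 and 9.18 in Hif1a-/- cells, against 8.74 and 9.76 in WT cells. Atm, the kinase of double-strand breaks, read 9.34 and 9.15 in Hif1a-/- cells, against 8.77 and 9.71 in WT cells. The WT arrays were 1.02 and 0.94 apart, while the genotype differences were 0.090 ± 0.32 for Atr and 0.0082 ± 0.29 for Atm (limma SE). The Atm value was -0.018 with array medians centred. Chek1, the effector kinase below Atr, read 10.58 and 10.45 in Hif1a-/- cells, against 10.10 and 10.69 in WT cells, a difference of 0.12. Chek2, the effector below Atm, read 9.27 and 9.48 in Hif1a-/- cells, against 9.12 and 9.49 in WT cells, a difference of 0.066.

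The repair genes followed the same order in part. Parp1, which marks breaks with poly(ADP-ribose), read 10.90 and 10.85 in Hif1a-/- cells, against 10.35 and 11.14 in WT cells, a difference of 0.14. Brca2, which loads the recombinase on broken ends, read 9.57 and 9.11 in Hif1a-/- cells, against 8.80 and 9.59 in WT cells, also a difference of 0.14. Both had WT replicate 1 as the lowest array and WT replicate 2 as the highest, with the Hif1a-/- arrays between. Trp53bp1, which favours end joining, had the same order and differed by -0.052. Fancd2, of interstrand crosslink repair, and Brca1, of homologous recombination, had Hif1a-/- replicate 1 as the highest array and differed by 0.067 and 0.099.

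**Figure D3:**
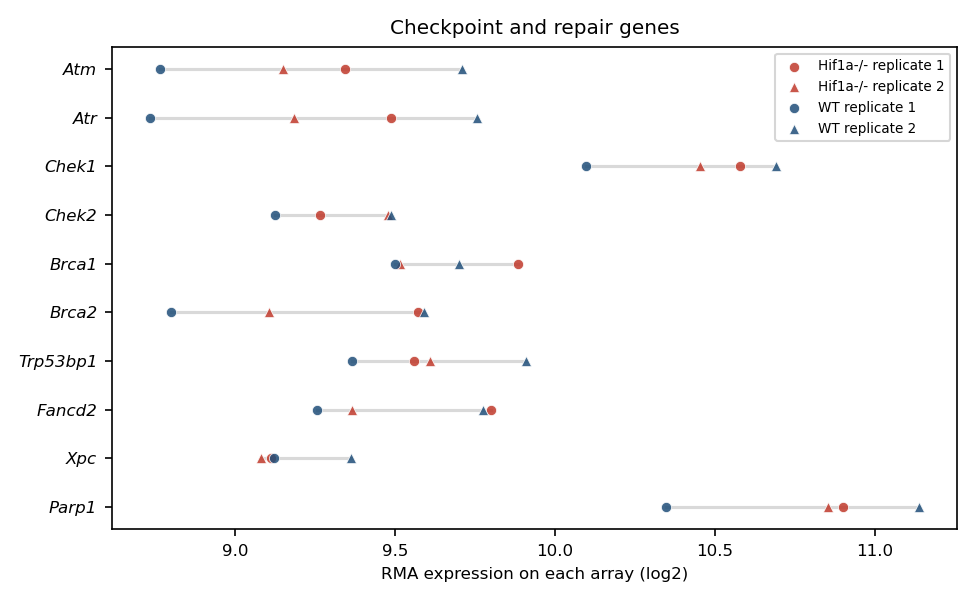
RMA expression (log2) of the 10 checkpoint and repair genes on each array, kinases above and repair genes below; red marks are Hif1a-/-, blue marks WT, circles replicate 1 and triangles replicate 2. WT replicate 2 lies right of WT replicate 1 for 10 of 10 genes, and the Hif1a-/- arrays lie between them for 7.

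Differences between arrays of the same genotype were larger than those between genotypes, with the reservation that a difference of 2 single arrays varies more than one of 2 means. In all 33 members the arrays of at least 1 genotype differed from each other by more than the genotype means did, against 85.4% of all genes. For 31 of the 33 members the WT arrays differed from each other by more than the genotypes did, against 75.5% of all genes, and the exceptions were Ccng1 and Phlda3. The Hif1a-/- arrays differed from each other by more than the genotypes did for 19 members, against 57% of all genes. The median size of the difference between WT arrays was 0.57 for checkpoint and repair genes and 0.41 for p53 targets, against 0.19 over all genes. Between the Hif1a-/- arrays it was 0.20 and 0.16, against 0.11 over all genes. Both Hif1a-/- arrays lay between the WT arrays for 18 of 33 members, against 32.9% of all genes.

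**Figure D4:**
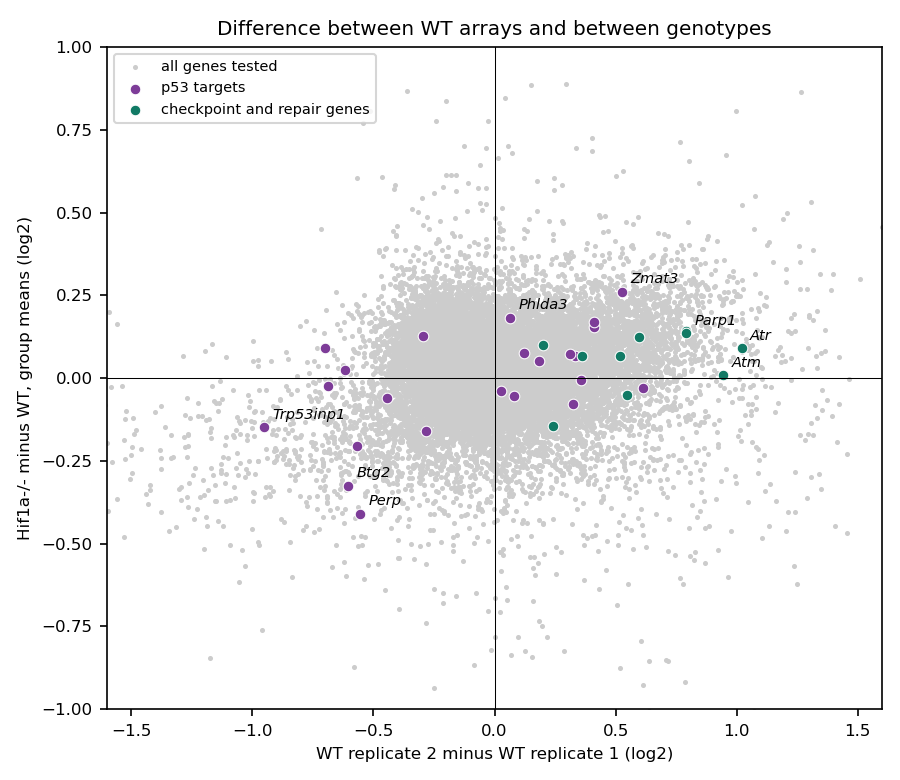
WT replicate 2 minus WT replicate 1 (horizontal, log2) against Hif1a-/- minus WT (vertical, log2) for all genes tested (grey, those beyond the axes not drawn), p53 targets (purple) and checkpoint and repair genes (green). The members spread from -0.95 to 1.02 horizontally and from -0.41 to 0.26 vertically, and all 10 green points lie right of 0.

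The direction of the difference between the WT arrays varied with the class of member. All 10 checkpoint and repair genes read higher on WT replicate 2, by 0.20 (Brca1) to 1.02 (Atr), with a median of 0.57, while 45.4% of all genes were higher there. On the Hif1a-/- arrays 8 of the 10 read lower on replicate 2, with a median difference of -0.16. Of the p53 targets, 13 read higher and 10 lower on WT replicate 2. All 3 feedback genes and all 3 repair targets were higher there. Of the 9 genes of growth arrest and stress response 6 were lower, and of the 8 of death and autophagy 4 were lower (Fas, Perp, Dram1 and Apaf1). No test was made of these differences, since each rests on 2 arrays.

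Further genes of both pathways were read in the same way. Of 23 further p53 pathway genes listed, 18 were measured, and Trp53 itself, Cdkn1a and Bax were among the 5 not analysed here. By limma 0 of the 18 passed the adjusted threshold and 0 had an unadjusted p under 0.05, with the Hif1a-/- mean above the WT mean in 9 and below it in 9 and a median of 0.0058. The smallest p-values belonged to Rprm (-0.26), Cop1 (-0.16) and Bbc3 (0.17), with unadjusted limma p of 0.146, 0.234 and 0.340. Bbc3 and Pmaip1 encode the apoptosis inducers PUMA and NOXA. Bbc3 read 8.42 and 8.17 in Hif1a-/- cells, against 8.28 and 7.98 in WT cells. Pmaip1 read 9.52 and 9.46 in Hif1a-/- cells, against 9.70 and 9.32 in WT cells. For both the groups overlapped.

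Of 40 further damage response genes listed, 35 were measured. Their Hif1a-/- mean lay above the WT mean in 25 and below it in 10, with a median difference of 0.054. By limma 0 passed the adjusted threshold and 0 had an unadjusted p under 0.05. The smallest p-values belonged to Xrcc4 (-0.26) and Fanca (0.26), without overlap between the groups, and to Rad18 (0.35), with unadjusted limma p of 0.0698, 0.141 and 0.378. Xrcc4 is a ligase cofactor of end joining, Fanca belongs to the crosslink repair complex, and Rad18 is a ubiquitin ligase of replication past lesions. On WT replicate 2, 33 of the 35 read higher than on WT replicate 1, with a median of 0.42 and 1.26 for Rad18. The Hif1a-/- arrays lay between the WT arrays for 21 of the 35, each time with WT replicate 2 the highest.

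Markers of cell state and of other blood cells also differed between the WT arrays. Stem cell genes were higher on WT replicate 2 for 8 of 9, with a median of 0.92. Their summed linear signal was 6206 and 7987 in Hif1a-/- cells, against 4785 and 11464 in WT cells. Cd34 had the largest WT difference of the list (1.98) and its highest value on WT replicate 2, so it weighs most in the sum there. Procr was the 1 gene lower on WT replicate 2 (-0.19). Proliferation genes were higher on WT replicate 2 for 18 of 20, with a median of 0.22 and sums of 81927 and 74147 in Hif1a-/- cells, against 68604 and 79278 in WT cells. Lymphoid genes were lower on WT replicate 2 for 9 of 9, with a median of -0.38 and sums of 3603 and 3305 in Hif1a-/- cells, against 5388 and 3207 in WT cells. Granulocyte and monocyte genes were split, 8 of 15 lower on WT replicate 2 and 7 higher, with a median of -0.086. Their differences ran from -2.05 for Ltf, with -1.61 for Itgam, to 0.70 for Mpo. The sums were 91418 and 85182 in Hif1a-/- cells, against 100463 and 75847 in WT cells. The summed signal of the 10 checkpoint and repair genes was 9326 and 8383 in Hif1a-/- cells, against 6813 and 10424 in WT cells. Like the stem cell and proliferation sums, it was lowest on WT replicate 1. It was highest on WT replicate 2, as was the stem cell sum, while the proliferation sum was highest on Hif1a-/- replicate 1. Between the Hif1a-/- arrays, replicate 1 was higher for checkpoint and repair and for proliferation genes, and replicate 2 for stem cell genes. The part of these markers in the members' values was not tested, and fewer cells of a type and less RNA per cell cannot be told apart in bulk samples.

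**Figure D5:**
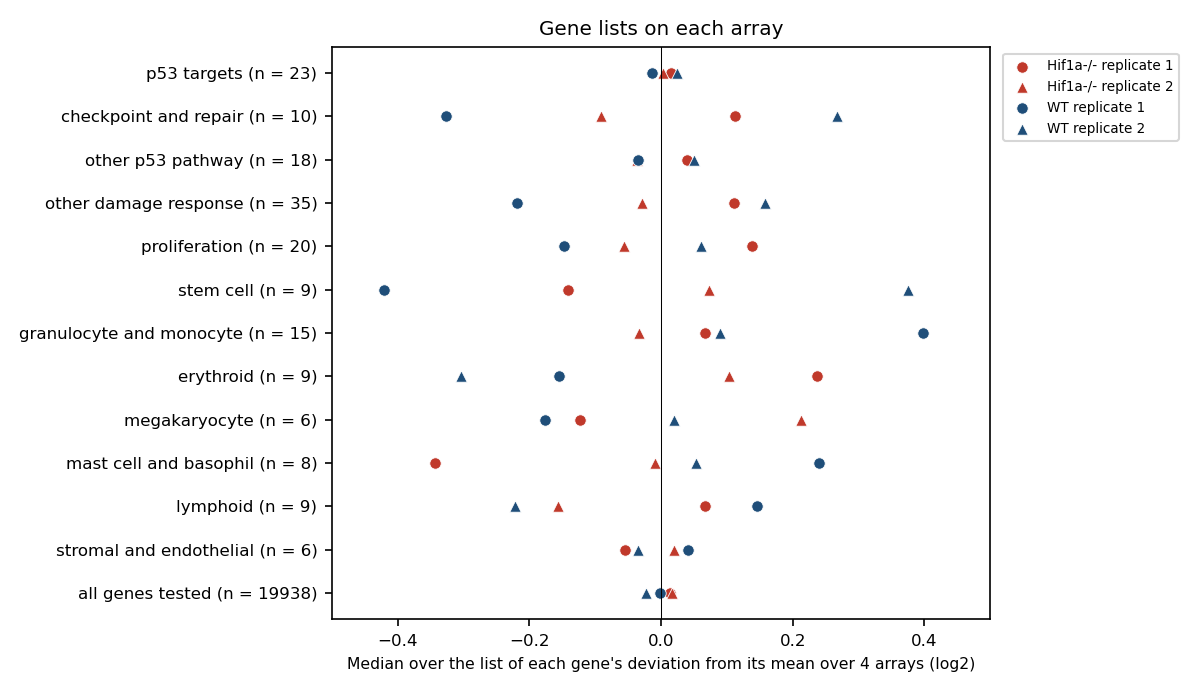
Median over each gene list of the genes' deviations from their own mean over the 4 arrays (log2), for Hif1a-/- (red) and WT (blue) replicates 1 (circles) and 2 (triangles); n is the number of measured genes. Checkpoint and repair genes lie at -0.33 on WT replicate 1 and 0.27 on WT replicate 2, with the Hif1a-/- arrays at 0.11 and -0.091. The p53 target median stays within 0.024 of 0 on all 4 arrays. Single p53 targets moved more, with 13 higher and 10 lower on WT replicate 2 and a median size of 0.41 between the WT arrays.

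Of the other marker lists, erythroid genes had a higher mean in Hif1a-/- cells for 9 of 9, against 61.4% of all genes. Their median was 0.36, with sums of 29468 and 22177 in Hif1a-/- cells, against 19527 and 16684 in WT cells. By limma 6 of the 9 had an unadjusted p under 0.05, against 1.68% of all genes, and 0 passed the adjusted threshold. For the mast cell and basophil list the mean was lower in Hif1a-/- cells for 8 of 8, against 38.6% of all genes. The median was -0.23, and the sizes ranged widely. Mcpt4 (-1.30) and Tpsb2 (-0.87) were the 2 at an unadjusted limma p under 0.05. The basophil proteases Mcpt8 (-0.093) and Prss34 (-0.020) differed little. For megakaryocyte genes (6 measured) the median was 0.19, with 1 at that p (Gp5, 0.37). For stromal and endothelial genes (6 measured) it was -0.017, with 1 at that p (Pecam1, -0.40). By genotype, the granulocyte and monocyte genes had a higher mean in Hif1a-/- cells for 8 of 15 and a lower one for 7, with a median of 0.10. The 2 at that p, Irf8 (-0.59) and Ccr2 (-0.87), were both lower.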

How the data were processed

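The log2 expression values (35556 probe sets, 4 arrays) are as the authors deposited them, made with Affymetrix Expression Console 1.1 and RMA per the submitters' processing notes, which give no more detail. RMA draws small differences of dim genes together and scales out changes of total RNA. The number of arrays limits the precision.

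Probe sets annotated to 1 symbol (21789; 1621 had several, 12146 were unnamed) were kept, and the one with the highest mean stood for each of 19938 genes; each member had 1. Genotype was the only term of the limma 3.58.1 fit (R 4.3.3; lmFit, eBayes) to all 4 arrays, with Benjamini-Hochberg adjustment over all genes at 0.05; 2 against 2 arrays allow no exact permutation p below 0.333, two-sided. The fit was tested on simulated data. Summed signals add linear values.

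Members and lists were chosen with earlier results of these data known. By rule all members are named, with array values for those without overlap and at least 0.2 apart (Perp), those with an unadjusted p under 0.05 (0) and the 4 that differed most within a genotype (Atr, Trp53inp1, Atm and Parp1); of the further genes Bbc3, Pmaip1 and the 3 with the smallest p per list are named. Array values of other members, and other marker genes, were added after they were seen. Same-numbered arrays did not deviate together (r = -0.0072 over genes), so the numbers were not taken as pairs. Promoter sequences are RefSeq's. Alternatives covered dim-gene filters, normalisation, a floor, the variance model, probe set averaging, the replicate block, the threshold and left-out arrays.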

Additional observations from a re-analysis of the deposited data

How the results depend on the processing

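With each array left out in turn, genes called over the whole table ranged from 2 to 1442 and members called from 0 to 9; both maxima came without WT replicate 2 and 349 genes were called without WT replicate 1, in fits with fewer samples. The median difference of checkpoint and repair genes ranged from -0.26 to 0.37. Over all genes, 47 were called with the replicate block, 1 with a variance trend and 2 with a robust trend. The main count was 0 (334 at an unadjusted p under 0.05), and the cause was not tested. With the block, the limma p followed the size of the difference and hardly the spread of a gene. It was 0.656 for Atr (0.090), whose WT arrays lay 1.02 apart, and 0.710 for Rrm2b (0.075), whose WT arrays lay 0.12 apart. With the replicate block 0 members were called. Perp (-0.41) was the 1 member with an unadjusted limma p under 0.05 (0.0415), while 370 of all 19938 genes had one. Perp had the largest difference of any member, and its p with the block followed that size. No member was called under any alternative that kept all 4 arrays, and over all alternatives, left-out arrays included, the p53 target median lay between -0.033 and 0.050. Centring the array medians turned Atm (-0.018) and Plk3 (-0.0017). Perp, Btg2, Apaf1, Ei24, Xpc, Phlda3 and Rrm2b kept their direction in all 4 leave-one-out fits; the other 26 members turned in at least 1. Their leave-one-out ranges were Aen -0.037 to 0.37, Atm -0.46 to 0.48, Atr -0.42 to 0.60, Brca1 -0.085 to 0.28, Brca2 -0.25 to 0.54, Ccng1 -0.15 to 0.074, Chek1 -0.17 to 0.42, Chek2 -0.11 to 0.25, Ddb2 -0.039 to 0.14, Dram1 -0.37 to 0.32, Eda2r -0.053 to 0.36, Fancd2 -0.19 to 0.33, Fas -0.26 to 0.44, Gadd45a -0.13 to 0.39, Mdm2 -0.10 to 0.23, Mdm4 -0.085 to 0.23, Parp1 -0.26 to 0.53, Plk2 -0.49 to 0.079, Plk3 -0.28 to 0.33, Polk -0.19 to 0.17, Sesn1 -0.34 to 0.28, Sesn2 -0.28 to 0.16, Tnfrsf10b -0.24 to 0.083, Trp53bp1 -0.32 to 0.22, Trp53inp1 -0.62 to 0.33, Zmat3 -0.0029 to 0.52.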
